A study of Homo sapiens with 24 samples.

Results

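Small nucleolar RNA host genes are transcribed into spliced RNAs whose introns are cut into small nucleolar RNAs (snoRNAs). Genes were taken as hosts by name, as those called SNHG followed by a number, together with GAS5, ZFAS1, DANCR and EPB41L4A-AS1. The rule found 29 of 58735 gene rows under 28 names, since SNHG28 has a pair of rows. They were measured in Sem, an established line of acute lymphoblastic leukaemia from B cell precursors with a KMT2A rearrangement, and in Nalm6, an established line of the same kind of leukaemia. Both lines received 10 µM ibrutinib, a covalent inhibitor of Bruton tyrosine kinase, or asparaginase, an enzyme that removes asparagine from the medium, or both drugs for 24 h, or were left untreated. This gave 8 groups of 3 libraries. For asparaginase the labels give 2 doses, 1 IU/ml with each sample and in the design, but 0.5 IU/ml where the treatment is described. The labels do not say whether the 3 libraries of a group came from separate cultures, and p-values therefore measure only how far libraries of a group differ, which can be technical.

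The mature host RNA is exported and, in many cases, begins with a terminal oligopyrimidine tract, a C followed by further pyrimidines at the cap, which ties translation to growth signals in ribosomal protein mRNAs. Most host RNAs hold no long reading frame, and ribosomes that stop early on them expose them to nonsense-mediated decay, a quality control pathway that degrades RNAs with an early stop. GAS5 was first known as a transcript that accumulates in growth-arrested cells. The excised snoRNAs guide modification of ribosomal RNA, methylation by the box C/D class and pseudouridylation by the box H/ACA class, while small Cajal body RNAs act on spliceosomal RNAs.

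The first 30 bases of annotated transcripts, from GENCODE 29 on GRCh38, are shown for 11 hosts on which the results below turn, with and without a tract, because the start is where it would lie. The hosts and starts were chosen after their values and letters were seen. Each is 1 of several annotated starts of its gene: one that begins with a tract where the gene has any, and otherwise the most upstream one or, for SNHG17, the one shared by most transcripts. Capitals mark the unbroken run of pyrimidines from the first base. The windows are chr1:173867960-173867989 on the minus strand for GAS5, chr20:49278642-49278671 on the plus strand for ZFAS1, chr6:85678704-85678733 on the minus strand for SNHG5 and chr4:118278758-118278787 on the plus strand for SNHG8. They are chr17:76557769-76557798 for SNHG16, chr1:28506043-28506072 for SNHG3, chr5:139274102-139274131 for SNHG4, chr4:52712404-52712433 for DANCR and chr5:112160526-112160555 for EPB41L4A-AS1, all on the plus strand. On the minus strand they are chr9:136728155-136728184 for SNHG7 and chr20:38435304-38435333 for SNHG17.
GAS5: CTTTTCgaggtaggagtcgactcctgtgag
ZFAS1: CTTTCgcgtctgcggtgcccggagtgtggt
SNHG5: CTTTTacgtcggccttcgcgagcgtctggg
SNHG8: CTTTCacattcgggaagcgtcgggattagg
SNHG16: CTTTTCgaggtcggccgcgtggctggaaga
SNHG3: CCTTTTTggagacagattcgcagtggtcgc
SNHG4: CCTTTCCCCTCCggcctctgccggtgctgc
DANCR: agagtcttcccgggattggctgcgggcctc
EPB41L4A-AS1: Tgtcgggtcccaaaatacgtggtctaaagt
SNHG7: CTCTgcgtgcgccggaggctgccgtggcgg
SNHG17: gcctcagtccttcgccgtccctcgccgtcc
Starts with a C and at least 4 further pyrimidines were found both in hosts that rose with asparaginase in both lines (GAS5, ZFAS1, SNHG5 and SNHG1) and in hosts that fell in several comparisons (SNHG16, SNHG3 and SNHG4). Hosts with no such start also went both ways, with EPB41L4A-AS1 and SNHG7 higher with the combination in Sem, and DANCR, SNHG15 and SNHG17 lower with it in Nalm6.

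A transcript start with a C and an unbroken run of at least 5 pyrimidines, read on the gene's own strand, was annotated for 14 of the 29 host rows, or 48.3%. The share was 6.58% among all 58676 genes with a transcript sequence and 14.3% among 15107 genes expressed in these cells. Of 24 expressed hosts, 13 held such a start, or 54.2%, and expressed hosts and expressed genes alike had a median of 5 annotated starts. With a single start per gene, from RefSeq, the share was 25% of 24 hosts with an entry against 4.07% of 35116 windows, and there GAS5, SNHG1, SNHG8, SNHG16 and SNHG3 held none. With the combination such a GENCODE start was held by 6 of 8 hosts called higher and 3 of 7 called lower in Sem, and by 4 of 4 and 7 of 14 in Nalm6. With asparaginase it was held by 5 of 7 and 2 of 3 in Sem and by 5 of 6 and 5 of 8 in Nalm6, and with ibrutinib by 2 of 3 and 4 of 6 in Sem and by 2 of 4 called lower in Nalm6. Against asparaginase alone, 1 of 3 hosts higher with the combination and 4 of 8 lower held one in Sem. These are descriptions of annotated letters, and the start used in these cells was not measured.

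The file holds 129 rows named as snoRNAs or small Cajal body RNAs inside the spans of 25 host rows, 83 of them inside SNHG14. Over the 24 libraries these 129 rows held 3684 reads in all, and 89 of them held none. Among the 89 are rows within exons of their host, such as SNORA73A, SNORD12 and SNORA24, and many inside SNHG14 outside its exons. SNORA73B and SNORD12B, which share no exon base with their hosts, held 569 and 87 reads. Why rows held no read was not tested, and a row without reads does not show that its snoRNA was absent. Only host levels are described below, not those of the snoRNAs in the 129 rows. By these rows, SNHG1, SNHG5, SNHG6, SNHG14, SNHG16, SNHG19, SNHG26 and ZFAS1 are hosts of box C/D snoRNAs among the hosts tested. SNHG3, SNHG4, SNHG7, SNHG8, SNHG9, SNHG11, SNHG15, SNHG17, DANCR and EPB41L4A-AS1 are hosts of box H/ACA snoRNAs. SNHG12 and SNHG25 hold both classes, and SNHG10, SNHG20 and SNHG21 hold a small Cajal body RNA.

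Levels are FPKM, reads scaled by gene length and by a library size fixed in the deposited values, and the libraries held 15 to 18.1 M reads in genes. That size was not the plain total. It was 0.9821 to 0.9949 times the reads in genes in untreated Nalm6, and 1.072 to 1.093 times with asparaginase or the combination. In Sem it was 0.9192 to 0.9402 times untreated and 0.9462 to 0.9834 times with drugs. Against untreated, FPKM of these drug groups are therefore lower than under scaling by the total. The 8 B cell precursor markers summed to 550 to 816 FPKM in Sem libraries and 1120 to 1767 FPKM in Nalm6 libraries. The 4 markers of KMT2A-rearranged leukaemia (MEIS1, HOXA9, HOXA10 and FLT3) summed to 456 to 654 FPKM in Sem and at most 0.143 FPKM in Nalm6, where 3 of the 4 stood at 0 in every library. T and NK cell markers summed to 10.5 to 24.6 FPKM in Sem and 0.972 to 3.24 FPKM in Nalm6. Almost all of this was NKG7, while CD3D and CD3E stood at 0 in every library and CD2 at no more than 0.0363 FPKM. Myeloid markers summed to 0.758 to 2.55 FPKM in Sem and 6.82 to 16.5 FPKM in Nalm6, where LYZ held 3.92 to 14.2 FPKM. Erythroid markers summed to at most 0.0467 and 0.152 FPKM, and stromal and epithelial markers to at most 0.979 and 0.193 FPKM. Among host transcripts, Sem untreated library 2 held the lowest value of its group for 17 of 24 hosts and Sem ibrutinib library 2 for 15 of 24, and they are 2 of 5 libraries that stood apart from their group in earlier results, with Nalm6 asparaginase library 1, combination library 1 and untreated library 2 as the others. Counts without these 5 are given beside the main ones. Over all tested genes, the mean correlation with group mates did not set the Sem pair clearly apart. It was 0.9870 for Sem untreated library 2, against 0.9873 and 0.9880, and 0.9867 for Sem ibrutinib library 2, against 0.9860 and 0.9865. Each of the Nalm6 ones had the lowest value of its group. Host FPKM summed to 527.6 in Sem untreated library 2, against 666.8 and 671.2 in the other Sem untreated libraries. In bulk RNA a change in every cell cannot be told apart from a change in the make-up of the culture.

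Of the 29 rows, 24 had at least 1 FPKM in at least 3 Sem libraries and 23 did so in Nalm6, where SNHG14 fell short, and only those rows were tested. SNHG18, SNHG27 and the second SNHG28 row held no read in any library, the first SNHG28 row held 4 reads and SNHG22 held 53. GAS5 took 18.4% of all reads in hosts and SNHG5 16.4%, and the 5 hosts with most reads (GAS5, SNHG5, SNHG1, SNHG7 and SNHG6) took 60.7%. A host was called when the limma test of log2(FPKM + 1) passed an adjusted p of 0.05 over all genes tested, and fold changes are on that scale, which understates changes of low genes.

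Per length, the highest hosts of untreated Sem cells were SNHG5 at 114 ± 16.3 FPKM and SNHG6 at 113 ± 26 FPKM (SD, n = 3), which did not differ beyond their spread. SNHG8 at 70.1 ± 11.5 FPKM, GAS5 at 60.7 ± 4.68 FPKM and DANCR at 49.6 ± 2.91 FPKM came next. In untreated Nalm6 cells DANCR led at 80.3 ± 3.78 FPKM (SD, n = 3), within the spread of SNHG8 at 72 ± 12.1 FPKM. GAS5 at 61.5 ± 5.09 FPKM and SNHG5 at 61 ± 2.87 FPKM were level with each other. The lowest hosts tested were SNHG25 in Sem, with 2.11, 0.731 and 0.219 FPKM, and SNHG11 in Nalm6, with 1.37, 1.05 and 1.13 FPKM. SNHG25 spread over almost its whole range between libraries of 1 group.

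**Figure D1:**
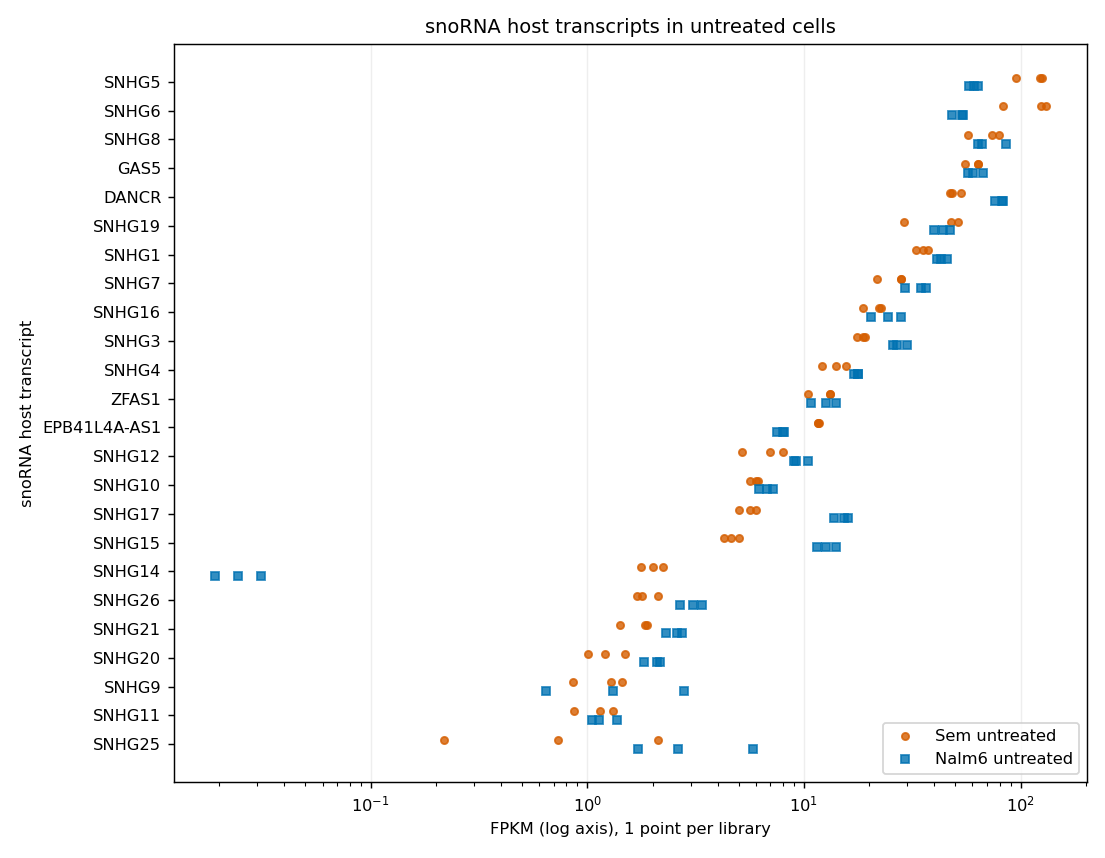
Level of 24 host transcripts in untreated cells, in FPKM on a log axis, one row per host, with circles for the 3 Sem libraries and squares for the 3 Nalm6 libraries. SNHG5 and SNHG6 sit highest in Sem and DANCR in Nalm6, and SNHG14 lies near 2 FPKM in Sem and under 0.05 FPKM in Nalm6.

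Untreated Sem cells had 4 hosts higher and 12 lower than untreated Nalm6 cells among 24 tested, while 34% of 15116 genes were higher and 31.8% lower (65.8% called). Without the libraries that stood apart, 5 hosts were higher in Sem and 11 lower. SNHG14, the long host of the imprinted chromosome 15 region that carries the SNORD115 and SNORD116 clusters, had 1.77, 2.23 and 2 FPKM in Sem, against 0.0192, 0.0312 and 0.0244 FPKM in Nalm6. It was thus far higher in all Sem libraries, and the untreated Nalm6 values rest on 14, 21 and 16 reads. SNHG14 passed the filter on low values through Sem alone, so its call is given with no test and it is 1 of the 4 hosts counted as higher. SNHG6, host of SNORD87, had 124, 82.7 and 131 FPKM in Sem and 53.5, 48.4 and 54 FPKM in Nalm6, a log2 difference of 1.07 ± 0.141 (SE, adjusted p = 1.3e-06). SNHG5 and EPB41L4A-AS1 were also higher in Sem, by 0.89 and 0.51 on the log2 scale. SNHG17, host of SNORA71 snoRNAs, was among the lower ones, with 6.01, 4.99 and 5.66 FPKM in Sem and 15.3, 13.8 and 16 FPKM in Nalm6, a log2 difference of -1.29 ± 0.087 (adjusted p = 7e-11). SNHG15, host of SNORA9, had 4.28, 5 and 4.59 FPKM in Sem and 14, 11.5 and 12.6 FPKM in Nalm6, a log2 difference of -1.28 ± 0.122 (adjusted p = 1.5e-08). For each of these the libraries of the lines did not overlap. DANCR was lower in Sem by -0.68 ± 0.057 (adjusted p = 2.3e-09). GAS5 and ZFAS1 both differed by -0.02 (adjusted p = 0.84), and their untreated libraries overlapped between the lines. SNHG25, SNHG21 and SNHG7, called lower in Sem, lost the call in at least 1 fit without 1 library.

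With asparaginase ZFAS1 and GAS5 rose most among hosts in both lines on the log2(FPKM + 1) scale. By the ratio of group means the low host SNHG11 rose slightly further than GAS5 in Nalm6. Its mean went from 1.18 to 2.34 FPKM, and that of GAS5 from 61.5 to 118 FPKM. In Nalm6 DANCR and SNHG4 fell to well under their untreated level. In Sem, 7 of 24 hosts rose and 3 fell with asparaginase, where 11.4% of 13417 genes rose and 15.1% fell (26.4% called). In Nalm6, 6 of 23 hosts rose and 8 fell, where 28.2% of 13237 genes rose and 28.1% fell (56.3% called), so the share of Nalm6 hosts called was near that of all genes. The median log2 change of hosts was 0.11 in Sem and -0.16 in Nalm6, against 0.00 and 0.02 for all genes tested in these lines. ZFAS1, GAS5, SNHG5, SNHG1 and EPB41L4A-AS1 rose in both lines, and DANCR, SNHG4 and SNHG3 fell in both. Scaled to TPM, which moved the median change of all genes in Nalm6 to 0.17, the Nalm6 counts became 8 higher and 6 lower, and the Sem counts 9 higher and 1 lower. With quantile normalization the Nalm6 counts were 9 higher and 9 lower. Without the 5 libraries that stood apart, 8 hosts rose and 5 fell in Sem, and 7 rose and 8 fell in Nalm6.

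ZFAS1, a host of SNORD12 family snoRNAs transcribed antisense to ZNFX1, had 22.3, 23.2 and 23.1 FPKM in Sem cells with asparaginase, against 13.2, 10.5 and 13.2 FPKM in untreated Sem cells. In Nalm6 it had 34, 32.1 and 27.5 FPKM with asparaginase, against 12.7, 14 and 10.8 FPKM untreated. The groups did not overlap in either line, and every treated library stood well above the highest untreated one. The log2 change was 0.85 ± 0.074 in Sem (adjusted p = 1.6e-05) and 1.26 ± 0.092 in Nalm6 (adjusted p = 9.5e-07). GAS5, which can bind the glucocorticoid receptor, had 101, 95.1 and 102 FPKM in Sem with asparaginase, against 63.4, 55.3 and 63.4 FPKM untreated. Its levels in Nalm6 were 130, 112 and 111 FPKM with asparaginase, against 60.2, 67.1 and 57.2 FPKM untreated. Again no library of one group reached the other, with log2 changes of 0.70 ± 0.063 in Sem (adjusted p = 1.9e-05) and 0.93 ± 0.082 in Nalm6 (adjusted p = 4.1e-06).

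SNHG5, host of SNORD50 snoRNAs, had 151, 140 and 161 FPKM in Sem with asparaginase, against 125, 95.6 and 123 FPKM untreated. In Nalm6 it had 82.4, 76 and 77.7 FPKM, against 58, 63.7 and 61.2 FPKM untreated. Its log2 change was close in the lines, 0.40 ± 0.1 in Sem (adjusted p = 0.013) and 0.36 ± 0.079 in Nalm6 (adjusted p = 0.0025). SNHG1, host of SNORD22 and its neighbours, rose by 0.33 in Sem and 0.31 in Nalm6 on the log2 scale. EPB41L4A-AS1, host of SNORA13, had 14.6, 14.5 and 15.3 FPKM in Sem with asparaginase, against 11.6, 11.7 and 11.6 FPKM untreated, a log2 change of 0.32 ± 0.058 (adjusted p = 0.0022). Its levels in Nalm6 were 9.32, 9.04 and 9.64 FPKM, against 7.97, 8.13 and 7.54 FPKM untreated, a change of 0.22 ± 0.060 (adjusted p = 0.0093). A share of 49.6% of its exon length lies opposite EPB41L4A, and whether the libraries kept strand was not stated.

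SNHG8, host of SNORA24, had 117, 102 and 111 FPKM in Sem with asparaginase, against 79.2, 57.2 and 73.8 FPKM untreated. That was a log2 change of 0.66 ± 0.104 (adjusted p = 0.00095), while in Nalm6 SNHG8 had 77.7, 65.7 and 67.7 FPKM with asparaginase, against 63.7, 85.9 and 66.4 FPKM untreated (-0.02 ± 0.116, adjusted p = 0.87). SNHG14 rose by 0.28 ± 0.068 in Sem (adjusted p = 0.012) and was not tested within Nalm6. SNHG11, host of SNORA71E, had 2.33, 2.17 and 2.53 FPKM in Nalm6 with asparaginase, against 1.37, 1.05 and 1.13 FPKM untreated. This low host rose by 0.61 ± 0.102 in Nalm6 (adjusted p = 0.00039), and its change in Sem was 0.17 ± 0.105 (adjusted p = 0.27).

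DANCR, host of SNORA26 and known for holding epidermal progenitors undifferentiated, had 36.2, 35 and 33.2 FPKM in Nalm6 with asparaginase, against 82, 75.9 and 82.8 FPKM untreated. In Sem it had 40.8, 40 and 38.5 FPKM, against 52.9, 47.5 and 48.4 FPKM untreated. The groups did not overlap in either line, and the log2 change was -0.31 ± 0.050 in Sem (adjusted p = 0.001) and -1.18 ± 0.063 in Nalm6 (adjusted p = 1.1e-07). SNHG4, host of SNORA74A upstream of MATR3, had 8, 7.22 and 6.97 FPKM in Nalm6 with asparaginase, against 17.8, 17.8 and 17 FPKM untreated, a log2 change of -1.14 ± 0.054 (adjusted p = 5.1e-08). In Sem it had 10, 11.6 and 10.2 FPKM, against 12.1, 15.7 and 14.1 FPKM untreated, a change of -0.37 ± 0.099 (adjusted p = 0.019). The Sem call was lost without untreated library 2 or 3 or asparaginase library 1 or 3 (adjusted p = 0.056 to 0.065) and with TPM scaling (adjusted p = 0.063).

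SNHG3, host of the SNORA73 snoRNAs that take part in 18S ribosomal RNA maturation, had 15.3, 16.6 and 14.6 FPKM in Sem with asparaginase, against 17.6, 19.1 and 18.8 FPKM untreated. Its log2 change was -0.24 ± 0.051 in Sem (adjusted p = 0.0053, and 0.062 with TPM scaling) and -0.65 ± 0.060 in Nalm6 (adjusted p = 5.1e-06). SNHG16, host of SNORD1 snoRNAs, had 10.7, 13.2 and 15.4 FPKM in Nalm6 with asparaginase, against 24.4, 20.3 and 28.1 FPKM untreated. Its log2 change was -0.84 ± 0.128 in Nalm6 (adjusted p = 0.00022), and its change in Sem was -0.18 ± 0.074 (adjusted p = 0.098). SNHG17, SNHG15, SNHG19 and SNHG25 also fell in Nalm6, with log2 changes of -0.41, -0.31, -0.45 and -1.15 in that order. SNHG25 had 1.71, 0.639 and 0.377 FPKM with asparaginase there, against 1.71, 5.79 and 2.62 FPKM untreated, so its groups overlapped. The SNHG25 call in Nalm6 was lost without untreated library 2 (-0.77, adjusted p = 0.068) and without asparaginase library 2 or 3, and SNHG15 and SNHG19 also lost theirs in at least 1 fit without 1 library.

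**Figure D2:**
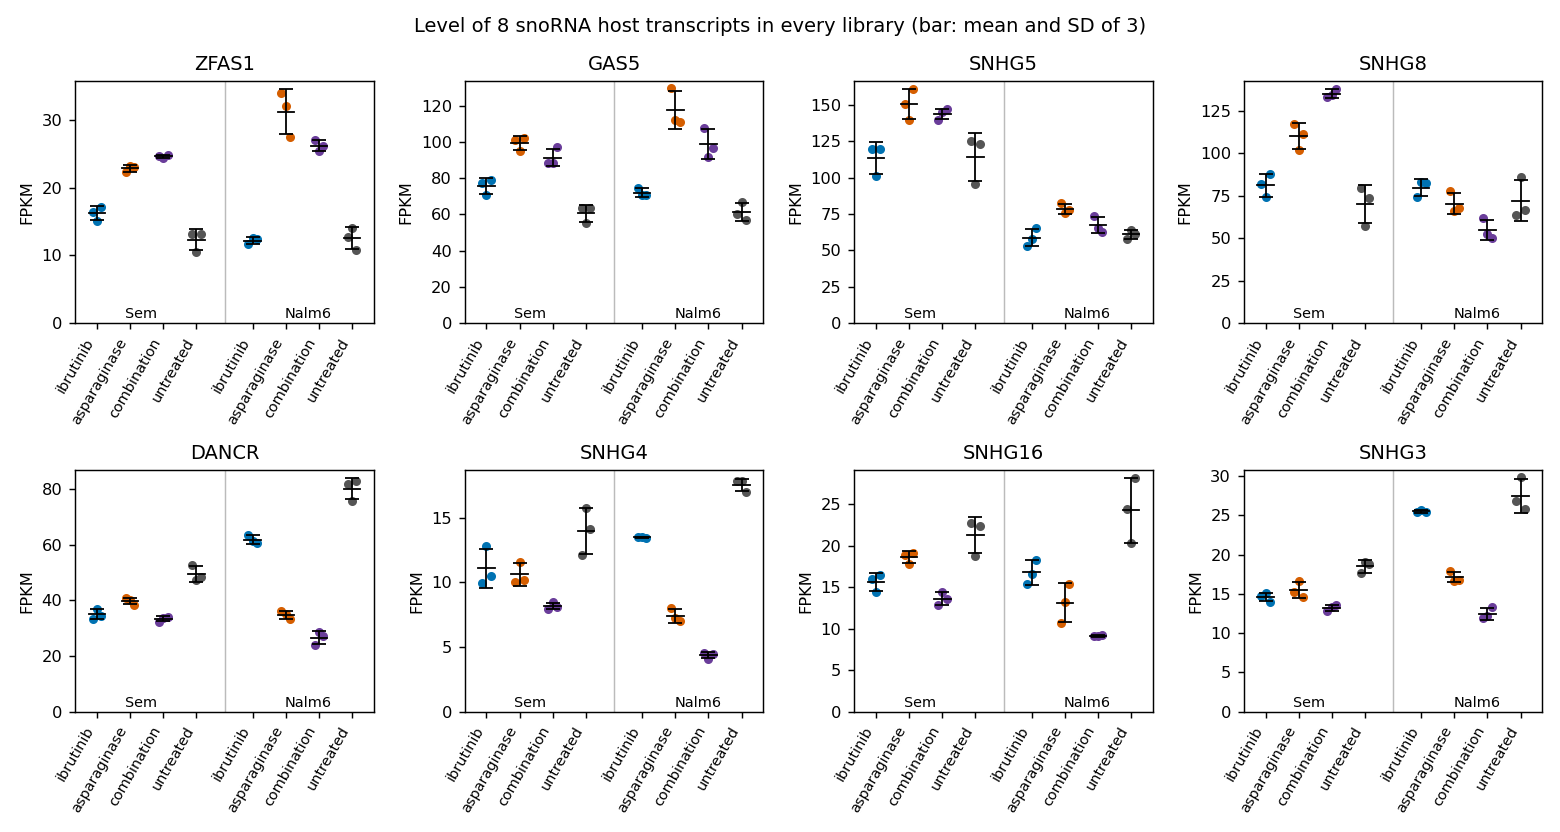
FPKM of 8 host transcripts in each library, with Sem on the left of each panel and Nalm6 on the right, and within a line ibrutinib, asparaginase, combination and untreated in order; points are libraries, bars the mean and SD of 3. ZFAS1 and GAS5 stand highest in the asparaginase and combination groups of both lines, DANCR and SNHG4 lowest in the Nalm6 combination, and SNHG8 is highest with the combination in Sem.

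Ibrutinib moved fewer hosts in Nalm6 than asparaginase did, as it did among all genes there (12.4% against 56.3% called). Its host calls in Nalm6 were all downward in the main fit, though not in every alternative. In Sem, 3 of 24 hosts rose and 6 fell with ibrutinib, where 20.3% of genes rose and 21.3% fell (41.5% called). In Nalm6, none of 23 rose and 4 fell by the limma test, where 4.97% of genes rose and 7.46% fell (12.4% called), and 8 hosts had an unadjusted p under 0.05. The median log2 change of hosts was -0.12 in Sem and -0.05 in Nalm6, against 0.01 and -0.01 for all genes. DANCR, SNHG4 and SNHG16 fell in both lines. Scaled to TPM the Sem counts were 7 higher and 4 lower and the Nalm6 counts 1 and 3, and with quantile normalization they were 7 and 7 in Sem and 1 and 1 in Nalm6. Without the 5 libraries that stood apart, 5 hosts rose and 6 fell in Nalm6, and 4 rose and 5 fell in Sem.

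In Sem, ZFAS1 had 16.4, 15.1 and 17.2 FPKM with ibrutinib, against 13.2, 10.5 and 13.2 FPKM untreated, a log2 change of 0.38 ± 0.074 (adjusted p = 0.0019). GAS5 had 77.4, 70.9 and 79.2 FPKM, against 63.4, 55.3 and 63.4 FPKM, a change of 0.32 ± 0.063 (adjusted p = 0.002). EPB41L4A-AS1 had 13.6, 12.6 and 15.4 FPKM, against 11.6, 11.7 and 11.6 FPKM, a change of 0.23 ± 0.058 (adjusted p = 0.0079). All 3 rises were without overlap between the groups, and each was smaller than the change of the same host with asparaginase in Sem. In Nalm6, ZFAS1 had 11.6, 12.5 and 12.4 FPKM with ibrutinib, against 12.7, 14 and 10.8 FPKM untreated (-0.03 ± 0.092, adjusted p = 0.88). GAS5 had 74.8, 70.7 and 70.8 FPKM in Nalm6 with ibrutinib, against 60.2, 67.1 and 57.2 FPKM untreated. These groups did not overlap, yet the change of 0.23 ± 0.082 missed the threshold (adjusted p = 0.097). It passed with TPM scaling, quantile normalization, the voom test on recovered reads, all 24 libraries in 1 fit, correction for GC content and length, and without the libraries that stood apart (adjusted p = 0.002 to 0.05).

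DANCR had 33.5, 37.1 and 34.5 FPKM in Sem with ibrutinib, against 52.9, 47.5 and 48.4 FPKM untreated, a log2 change of -0.49 ± 0.050 (adjusted p = 2.4e-05). In Nalm6 it had 63.6, 61.3 and 60.5 FPKM, against 82, 75.9 and 82.8 FPKM, a change of -0.37 ± 0.063 (adjusted p = 0.0047, and 0.062 with quantile normalization). SNHG16 had 16, 14.4 and 16.5 FPKM in Sem with ibrutinib, against 22.7, 18.8 and 22.3 FPKM untreated, a change of -0.42 ± 0.074 (adjusted p = 0.00098). Its levels in Nalm6 were 15.4, 16.6 and 18.3 FPKM, against 24.4, 20.3 and 28.1 FPKM, a change of -0.50 ± 0.128 (adjusted p = 0.03). The Nalm6 call of SNHG16 was lost without untreated library 1 or 3 or ibrutinib library 1 or 2 (adjusted p = 0.082 to 0.11). It was also lost with no filter on low values (adjusted p = 0.079) and with quantile normalization (adjusted p = 0.078).

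SNHG4 had 13.5, 13.5 and 13.4 FPKM in Nalm6 with ibrutinib, against 17.8, 17.8 and 17 FPKM untreated, a change of -0.36 ± 0.054 (adjusted p = 0.0024). In Sem its change was -0.31 ± 0.099 (adjusted p = 0.025), with overlapping groups and a call that was lost in some fits without 1 library. SNHG3 fell in Sem, with a log2 change of -0.32 ± 0.051 (adjusted p = 0.0005). SNHG12, host of SNORA16A, SNORA44 and SNORA61, had 4.7, 4.66 and 5.23 FPKM in Sem with ibrutinib, against 6.98, 5.16 and 8 FPKM untreated, and SNHG15 had 4.14, 2.65 and 3.39 FPKM, against 4.28, 5 and 4.59 FPKM. Their changes were -0.38 ± 0.112 (adjusted p = 0.018) and -0.37 ± 0.120 (adjusted p = 0.029). SNHG12 lost its call without untreated library 1 or 3 or ibrutinib library 1 or 2, and SNHG15 without untreated library 2 or 3 or ibrutinib library 2 or 3, with -0.24 (adjusted p = 0.11) without ibrutinib library 2. Without the libraries that stood apart the SNHG15 change was -0.19 (adjusted p = 0.23), and with TPM scaling it was -0.35 (adjusted p = 0.07). SNHG17 had 12.1, 11.8 and 11.9 FPKM in Nalm6 with ibrutinib, against 15.3, 13.8 and 16 FPKM untreated. The call for this change of -0.31 ± 0.077 (adjusted p = 0.027) was lost without untreated library 1 or 3 or any 1 of the ibrutinib libraries (adjusted p = 0.07 to 0.1). It was also lost with no filter on low values (adjusted p = 0.06), TPM scaling (adjusted p = 0.068) and quantile normalization (adjusted p = 0.081).

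With both drugs ZFAS1, GAS5 and SNHG6 rose in both lines, DANCR, SNHG4 and SNHG16 fell in both, and SNHG8 rose in Sem and fell in Nalm6. In Sem, 8 of 24 hosts rose and 7 fell with the combination, where 26.6% of genes rose and 26.3% fell (52.9% called). In Nalm6, 4 of 23 hosts rose and 14 fell, where 32.4% of genes rose and 31.3% fell (63.7% called). The median log2 change of hosts was 0.11 in Sem and -0.39 in Nalm6, against 0.02 for all genes in each line. Host FPKM summed to 830 ± 14.4 in Sem with the combination, 762 ± 20.6 with asparaginase and 646 ± 62.2 with ibrutinib, against 622 ± 81.7 untreated (SD, n = 3). In Nalm6 the sums were 512 ± 22.5, 604 ± 22.5 and 583 ± 15.1, against 595 ± 16.6 untreated. These Nalm6 sums depend on the scaling. As TPM they were 1960 to 2132 with the combination, 2294 to 2499 with asparaginase and 2144 to 2169 with ibrutinib, against 2026 to 2141 untreated. On that scale the asparaginase sums lay above untreated, and the combination sums overlapped untreated. Scaled to TPM, which moved the median change of all genes to 0.19 in Nalm6 and 0.11 in Sem, the Nalm6 counts were 8 higher and 11 lower and the Sem counts 9 and 7. With quantile normalization the Nalm6 counts were 7 higher and 14 lower. Leaving out the 5 libraries that stood apart gave 9 higher and 8 lower in Sem, and 4 higher and 12 lower in Nalm6.

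ZFAS1 had 24.6, 24.4 and 24.8 FPKM in Sem with the combination, against 13.2, 10.5 and 13.2 FPKM untreated, and 27, 25.4 and 26.2 FPKM in Nalm6, against 12.7, 14 and 10.8 FPKM. The changes were 0.95 ± 0.074 in Sem (adjusted p = 1.6e-06) and 1.02 ± 0.092 in Nalm6 (adjusted p = 2.5e-06). GAS5 had 88.6, 88.6 and 97.1 FPKM in Sem with the combination, against 63.4, 55.3 and 63.4 FPKM untreated, a change of 0.58 ± 0.063 (adjusted p = 1.7e-05). In Nalm6 it had 108, 91.7 and 96.7 FPKM, against 60.2, 67.1 and 57.2 FPKM, a change of 0.68 ± 0.082 (adjusted p = 2.8e-05). Both hosts thus rose with the combination in both lines with no overlap of the groups.

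SNHG6 had 173, 179 and 153 FPKM in Sem with the combination, against 124, 82.7 and 131 FPKM untreated, a change of 0.60 ± 0.169 (adjusted p = 0.011). Its levels in Nalm6 were 63.9, 63.8 and 61.8 FPKM, against 53.5, 48.4 and 54 FPKM, a change of 0.28 ± 0.076 (adjusted p = 0.0075). The Nalm6 call was lost without the libraries that stood apart (0.22, adjusted p = 0.051) and with all 24 libraries in 1 fit (adjusted p = 0.097). Exons of SNHG6 lie over MCMDC2 on the other strand for 29.3% of their length. SNHG1 and SNHG5 rose in Sem by 0.41 and 0.34, and in Nalm6 their changes were 0.07 (adjusted p = 0.34) and 0.14 (adjusted p = 0.15).

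SNHG8 was the 1 host called in opposite directions in the lines under the combination. It had 133, 134 and 138 FPKM in Sem with the combination, against 79.2, 57.2 and 73.8 FPKM untreated, a change of 0.95 ± 0.104 (adjusted p = 1.9e-05). In Nalm6 it had 61.8, 52.2 and 50.3 FPKM, against 63.7, 85.9 and 66.4 FPKM, a change of -0.38 ± 0.116 (adjusted p = 0.013). The Nalm6 fall was lost without combination library 3 (adjusted p = 0.052), with TPM scaling (-0.21, adjusted p = 0.12), with quantile normalization (-0.06, adjusted p = 0.68) and in the voom test (-0.25, adjusted p = 0.057). SNHG7, host of SNORA17 snoRNAs, had 48.2, 49.9 and 50.8 FPKM in Sem with the combination, against 28, 21.8 and 28.1 FPKM untreated, a change of 0.92 ± 0.087 (adjusted p = 6.2e-06). In Nalm6 its change was 0.13 ± 0.113 (adjusted p = 0.32). EPB41L4A-AS1 had 19.5, 19.7 and 20.3 FPKM in Sem, against 11.6, 11.7 and 11.6 FPKM, a change of 0.72 ± 0.058 (adjusted p = 1.9e-06). Its levels in Nalm6 were 8.25, 9.09 and 8.28 FPKM, against 7.97, 8.13 and 7.54 FPKM (0.10 ± 0.060, adjusted p = 0.16), and this passed with TPM scaling (0.28, adjusted p = 0.0026) and in the voom test (0.26, adjusted p = 0.0099). SNHG7 exons lie over FAM69B on the other strand for 25.2% of their length.

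DANCR had 24.1, 28.6 and 27.2 FPKM in Nalm6 with the combination, against 82, 75.9 and 82.8 FPKM untreated, a change of -1.56 ± 0.063 (adjusted p = 6.3e-09). In Sem it had 32.4, 33.7 and 34.2 FPKM, against 52.9, 47.5 and 48.4 FPKM, a change of -0.55 ± 0.050 (adjusted p = 4.2e-06). SNHG4 had the largest fall on the log2(FPKM + 1) scale in both lines, although by the ratio of group means SNHG9 in Sem and SNHG25 in Nalm6, both low hosts, fell further. It had 4.56, 4.11 and 4.48 FPKM in Nalm6, against 17.8, 17.8 and 17 FPKM untreated. In Sem it had 7.97, 8.46 and 8.1 FPKM, against 12.1, 15.7 and 14.1 FPKM. Its log2 change was -0.70 ± 0.099 in Sem (adjusted p = 0.00013) and -1.78 ± 0.054 in Nalm6 (adjusted p = 1.1e-09), and 14.0% of its exon length is shared with MATR3 on the same strand.

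SNHG16 had 12.8, 14.4 and 13.6 FPKM in Sem with the combination, against 22.7, 18.8 and 22.3 FPKM untreated, and 9.09, 9.06 and 9.29 FPKM in Nalm6, against 24.4, 20.3 and 28.1 FPKM. The changes were -0.61 ± 0.074 (adjusted p = 4e-05) in Sem and -1.30 ± 0.128 (adjusted p = 5.2e-06) in Nalm6. SNHG3, SNHG15, SNHG9 and SNHG21 also fell in both lines, with changes of -0.45, -0.53, -0.61 and -0.37 in Sem and of -1.08, -0.94, -0.79 and -0.55 in Nalm6. SNHG9, host of SNORA78, had 0.638, 0.436 and 0.235 FPKM in Sem with the combination, against 1.28, 0.861 and 1.44 FPKM untreated, and 0.849, 0.102 and 0.388 FPKM in Nalm6, against 0.646, 2.81 and 1.32 FPKM. Its Nalm6 groups overlapped, and its Sem groups did not. Lower in Nalm6 were also SNHG12 and SNHG17, both with a log2 change of -0.84, SNHG19 with -0.82, SNHG26 with -0.39, SNHG20 with -0.21 and SNHG25 with -1.22. SNHG25 had 0.841, 0.606 and 0.769 FPKM in Nalm6 with the combination, against 1.71, 5.79 and 2.62 FPKM untreated. SNHG11 rose in Nalm6, with 1.85, 1.82 and 2.56 FPKM, against 1.37, 1.05 and 1.13 FPKM (0.49 ± 0.102, adjusted p = 0.0014). In Nalm6 SNHG20, SNHG21 and SNHG9, and in Sem SNHG21, lost their calls in at least 1 fit without 1 library.

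**Figure D3:**
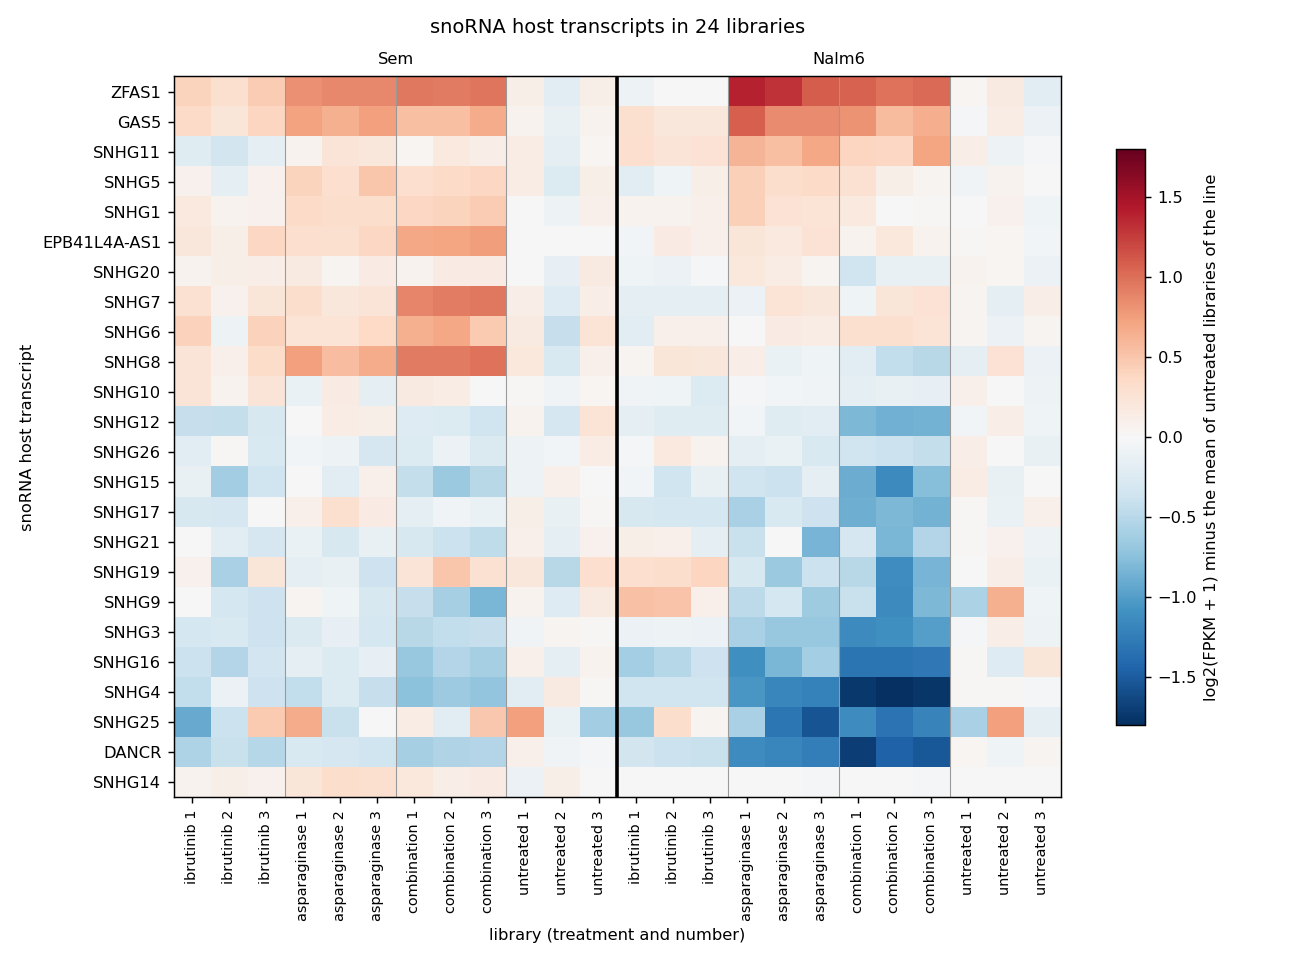
Log2(FPKM + 1) of 24 host transcripts in each of 24 libraries, minus the mean of the untreated libraries of the same line, in colour, with rows for hosts and columns for libraries. ZFAS1 and GAS5 are above untreated in every asparaginase and combination library, while DANCR, SNHG4 and SNHG16 are far below it in the Nalm6 combination libraries.

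By the kind of small RNA inside, a grouping made after the values were seen and not tested, the 8 box C/D hosts tested in Sem had 4 higher and 1 lower with the combination and a median log2 change of 0.34, where 26.6% of all genes rose and 26.3% fell. The 10 box H/ACA hosts had 3 higher and 5 lower and a median of -0.28. In Nalm6 the 7 box C/D hosts had 2 higher and 3 lower with a median of 0.07, and the 10 box H/ACA hosts had 1 higher and 7 lower with a median of -0.81, where 32.4% of all genes rose and 31.3% fell. GAS5, which rose by 0.58 in Sem and 0.68 in Nalm6, is left out of these counts and medians, as no row named as a snoRNA was matched to it. That does not show that GAS5 holds no snoRNA. With asparaginase the medians were 0.28 for box C/D and 0.07 for box H/ACA hosts in Sem and 0.10 and -0.36 in Nalm6. Both classes held members that rose and members that fell.

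Of the hosts that passed between the combination and asparaginase alone, more were lower than higher in both lines. Against asparaginase alone, 3 of 24 hosts were higher and 8 lower with the combination in Sem, where 18.6% of genes were higher and 19.8% lower (38.3% called). In Nalm6, none of 23 was higher by the limma test and 10 were lower, where 9.8% of genes were higher and 12% lower (21.8% called), and 16 hosts had an unadjusted p under 0.05. Leaving out the libraries that stood apart gave 6 higher and 8 lower in Sem, and 0 and 11 in Nalm6. In Sem, SNHG7 was at 48.2, 49.9 and 50.8 FPKM with the combination, against 32.4, 29.9 and 30.5 FPKM with asparaginase (0.67 ± 0.087, adjusted p = 0.00013). EPB41L4A-AS1 was higher by 0.40 ± 0.058 (adjusted p = 0.00027) and SNHG8 by 0.29 ± 0.104 (adjusted p = 0.046). SNHG9 and SNHG15 were lower in Sem by -0.50 each (adjusted p = 0.029 and 0.0072), and the SNHG9 call was lost without asparaginase library 1 or 2 or combination library 2 or 3. SNHG8, SNHG17, SNHG4 and SNHG12 also lost their Sem calls in some fits without 1 library, and leaving out combination library 3 left 6 of the 11 hosts called and asparaginase library 2 left 7. DANCR was lower in Sem by -0.24 ± 0.050 (adjusted p = 0.0027). ZFAS1 differed in Sem by 0.10 (adjusted p = 0.32, and 0.033 without the libraries that stood apart) and GAS5 by -0.12 (adjusted p = 0.16, and 0.032 with the replicate number as a block).

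In Nalm6, SNHG12 was at 5.03, 4.82 and 4.84 FPKM with the combination, against 9.19, 8.1 and 8.21 FPKM with asparaginase, a difference of -0.69 ± 0.062 (adjusted p = 4.5e-05). Asparaginase alone had changed this host by -0.16 ± 0.062 (adjusted p = 0.052). SNHG4 was lower by -0.64 ± 0.054 (adjusted p = 2.9e-05) and DANCR by -0.38 ± 0.063 (adjusted p = 0.0019). GAS5 differed by -0.25 ± 0.082 (adjusted p = 0.053), and passed in 6 alternatives, among them the fit with the replicate number as a block (adjusted p = 0.044) and the fit without combination library 1 (-0.32, adjusted p = 0.022). ZFAS1 differed by -0.24 ± 0.092 (adjusted p = 0.09) and passed without asparaginase library 3 (-0.32, adjusted p = 0.037). EPB41L4A-AS1 differed by -0.12 ± 0.060 (adjusted p = 0.2). SNHG1, SNHG20, SNHG8 and SNHG16 were called lower but lost the call in some fits without 1 library.

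Against ibrutinib alone, the combination raised 7 of 24 hosts and lowered 1 in Sem, where 4.81% of genes were higher and 7.3% lower (12.1% called). In Nalm6 it raised 4 of 23 and lowered 13, where 29.5% of genes were higher and 27.6% lower (57.1% called). The counts without the libraries that stood apart were 7 higher and 2 lower in Sem, and 4 and 13 in Nalm6. In Sem, SNHG7 was at 48.2, 49.9 and 50.8 FPKM with the combination, against 31.4, 27.2 and 30.2 FPKM with ibrutinib (0.73 ± 0.087, adjusted p = 0.00035), and SNHG8 at 133, 134 and 138 FPKM, against 82.1, 73.9 and 87.5 FPKM (0.73 ± 0.104, adjusted p = 0.0012). ZFAS1 was higher by 0.57 ± 0.074 (adjusted p = 0.00063), EPB41L4A-AS1 by 0.49 ± 0.058 (adjusted p = 0.00034), SNHG5 by 0.34 ± 0.1 (adjusted p = 0.047), SNHG1 by 0.30 ± 0.048 (adjusted p = 0.0024) and GAS5 by 0.27 ± 0.063 (adjusted p = 0.019). SNHG4 was lower by -0.39 ± 0.099 (adjusted p = 0.029). The calls of SNHG5, GAS5 and SNHG4 were lost in some fits without 1 library, and 5 hosts stayed called without ibrutinib library 2 or without combination library 3. DANCR differed in Sem by -0.06 ± 0.050 (adjusted p = 0.46). In Nalm6 ZFAS1 was higher by 1.05 ± 0.092 (adjusted p = 3.4e-06) and GAS5 by 0.45 ± 0.082 (adjusted p = 0.0008), while SNHG4 was lower by -1.42 ± 0.054 (adjusted p = 1.2e-08) and DANCR by -1.19 ± 0.063 (adjusted p = 9e-08).

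The interaction asks whether the combination differs from the sum of the changes with each drug on the log2 scale. In Sem 1 of 24 hosts passed, GAS5, and it was lower, where 0.76% of genes were higher and 0.768% lower (1.53% called). In Nalm6 SNHG12, GAS5 and SNHG3 passed as lower, 3 of 23, where 3% of genes were higher and 2.58% lower (5.58% called). GAS5 was below the sum by -0.44 ± 0.089 in Sem (adjusted p = 0.041) and by -0.48 ± 0.117 in Nalm6 (adjusted p = 0.039). Its call was lost in 10 of 12 fits without 1 library in each line (adjusted p up to 0.1 in Sem and up to 0.095 in Nalm6), and with no filter on low values (adjusted p = 0.09 in both lines). SNHG12 was below the sum in Nalm6 by -0.49 ± 0.088 (adjusted p = 0.011), with a call in every fit without 1 library, and SNHG3 by -0.33 ± 0.084 (adjusted p = 0.048), a call that held in 2 of 12 such fits (adjusted p up to 0.11). ZFAS1 was at -0.28 (adjusted p = 0.22) in Sem and -0.21 (adjusted p = 0.4) in Nalm6. DANCR was at 0.25 (adjusted p = 0.11) and -0.01 (adjusted p = 0.98), and EPB41L4A-AS1 at 0.17 (adjusted p = 0.33) and -0.18 (adjusted p = 0.27).

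The drug effects were set against each other between the lines in 1 fit of 24 libraries. For ibrutinib, 1 of 24 hosts changed more upward in Sem and 1 more downward, where 7.57% and 6.09% of 15116 genes did so (13.7% called). For asparaginase, 7 hosts were higher in Sem relative to Nalm6 and 2 lower, where 17.7% and 15.7% of genes were (33.5% called). Among the 7 was SNHG14, whose Nalm6 change is held near 0 by its low level, so that its call restates its change in Sem. For the combination, 12 hosts were higher and 1 lower, where 22.2% and 18.6% of genes were (40.8% called). Without the libraries that stood apart the counts higher and lower were 1 and 5 for ibrutinib, 7 and 3 for asparaginase, and 12 and 1 for the combination. The median difference of hosts, Sem minus Nalm6, was 0.05, 0.23 and 0.37 on the log2 scale for these effects in turn, against 0.01, -0.01 and 0.02 for all genes. The comparisons share their untreated libraries, so they are not independent of each other.

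SNHG8 had the largest difference for the combination among called hosts, 1.33 ± 0.166 (adjusted p = 2.9e-06), and SNHG19, host of SNORD60, followed at 1.16 ± 0.285 (adjusted p = 0.003). SNHG19 had 48.7, 59 and 50.4 FPKM in Sem with the combination, against 47.7, 28.9 and 51.3 FPKM untreated. In Nalm6 it had 30.3, 19.4 and 23.8 FPKM, against 43.7, 47.1 and 39.7 FPKM. The Nalm6 groups were apart, and the Sem groups overlapped, with untreated library 2 far below the others of its group. DANCR differed by 0.87 ± 0.081 for asparaginase (adjusted p = 1.5e-07) and by 1.00 ± 0.081 for the combination (adjusted p = 1.1e-08), a fall in both lines that was deeper in Nalm6. SNHG4 differed likewise, by 0.77 ± 0.117 (adjusted p = 4.7e-05) and 1.08 ± 0.117 (adjusted p = 5.4e-07). EPB41L4A-AS1 differed for the combination by 0.62 ± 0.083 (adjusted p = 6.9e-06), and for ibrutinib and asparaginase by 0.17 (adjusted p = 0.2) and 0.10 (adjusted p = 0.38).

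ZFAS1 differed by 0.41 ± 0.123 for ibrutinib (adjusted p = 0.034), in which it rose in Sem, and by -0.40 ± 0.123 for asparaginase (adjusted p = 0.016), in which it rose further in Nalm6. The ibrutinib difference was lost without the libraries that stood apart (0.27, adjusted p = 0.058), in the voom test, and in 7 fits without 1 library, and the asparaginase difference without Nalm6 untreated library 3 (-0.31, adjusted p = 0.052). For the combination ZFAS1 differed by -0.07 ± 0.123 (adjusted p = 0.72). SNHG11 differed by -0.50 ± 0.132 for ibrutinib (adjusted p = 0.014), -0.45 ± 0.132 for asparaginase (adjusted p = 0.013) and -0.38 ± 0.132 for the combination (adjusted p = 0.027). SNHG11 had 0.803, 0.675 and 0.874 FPKM in Sem with ibrutinib, against 1.31, 0.867 and 1.15 FPKM untreated, and 1.69, 1.55 and 1.62 FPKM in Nalm6, against 1.37, 1.05 and 1.13 FPKM, and neither change passed within its line. The combination difference of SNHG11 was lost without any 1 of 6 libraries (Nalm6 untreated 2 or 3 or combination 3, Sem untreated 1 or 3 or combination 1, adjusted p = 0.053 to 0.089). GAS5 differed by 0.09 (adjusted p = 0.66), -0.22 (adjusted p = 0.13) and -0.09 (adjusted p = 0.53) for ibrutinib, asparaginase and the combination. Its asparaginase difference passed in 5 alternatives, with quantile normalization at -0.51 (adjusted p = 0.0013).

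**Figure D4:**
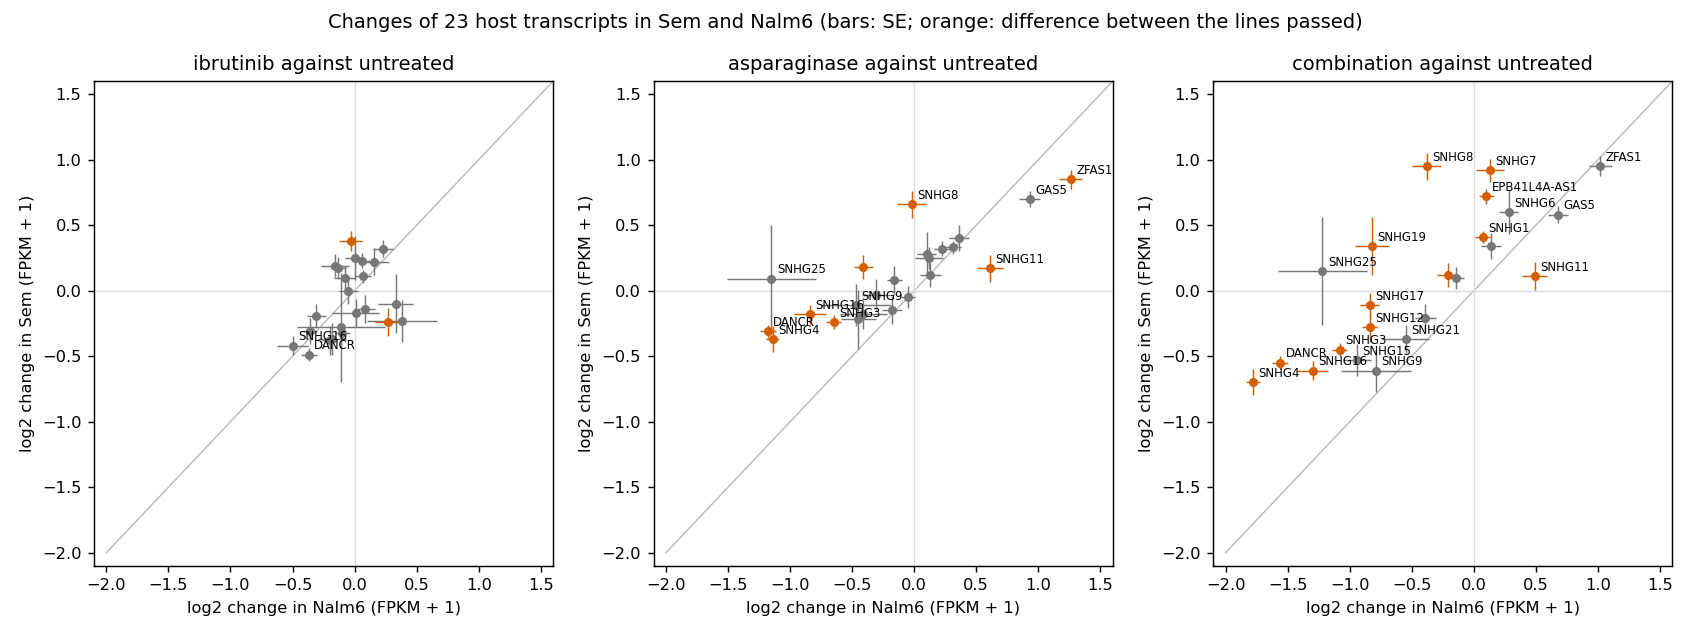
Log2 change of 23 host transcripts in Sem (vertical) against the change in Nalm6 (horizontal) for ibrutinib, asparaginase and the combination, with SE as bars and hosts whose difference between lines passed in orange. In the combination panel most hosts lie above the diagonal, with SNHG8 at 0.95 in Sem and -0.38 in Nalm6, while ZFAS1 and GAS5 lie close to it.

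The 3 comparisons of a line with untreated cells share their untreated libraries, so calls repeated across them are not independent. The share of all genes called in all 3 was not counted, so the hosts below are described and not set against it. Across these comparisons, ZFAS1, GAS5 and EPB41L4A-AS1 rose in all 3 in Sem, and DANCR, SNHG3 and SNHG4 fell in all 3. In Nalm6 no host rose in all 3, and DANCR, SNHG4, SNHG16 and SNHG17 fell in all 3. SNHG10, SNHG11, SNHG17, SNHG19, SNHG20, SNHG25 and SNHG26 passed in none of the 3 in Sem, and SNHG10 and SNHG7 in none in Nalm6. SNHG10, host of SCARNA13, held 5.15 to 7.13 FPKM over all 12 Sem libraries and 5.54 to 7.23 FPKM over all 12 Nalm6 libraries.

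The genes of the proteins that bind snoRNAs were lower with the combination in both lines. All 4 core protein genes of box C/D particles (FBL, NOP56, NOP58 and SNU13) and all 4 of box H/ACA particles (DKC1, NHP2, NOP10 and GAR1) fell with the combination in both lines. Among all genes tested, 26.3% fell with it in Sem and 31.3% in Nalm6. The median log2 changes of these core protein genes were -0.58 and -0.60 in Sem and -1.15 and -1.08 in Nalm6, against 0.02 for all genes in each line. NHP2 had log2 changes of -0.85 in Sem and -1.72 in Nalm6, and FBL, the methyltransferase, of -0.27 and -1.17. With asparaginase 3 of 4 box C/D and 2 of 4 box H/ACA proteins fell in Sem and all 8 in Nalm6, where 15.1% and 28.1% of all genes fell. With ibrutinib all 8 fell in Sem and 2 of them, GAR1 and NHP2, in Nalm6, where 21.3% and 7.46% of all genes fell. Of 9 assembly and trafficking factors, 8 fell with the combination in each line, with NOLC1 at -0.76 in Sem and -1.38 in Nalm6 and TCOF1 at -0.65 and -1.20.

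Of 19 protein-coding snoRNA hosts tested, 4 rose and 12 fell with the combination in Sem, and 3 rose and 12 fell in Nalm6, where 26.6% of all genes rose and 26.3% fell in Sem and 32.4% rose and 31.3% fell in Nalm6. The translation elongation factor gene EEF2, host of SNORD37, rose by 0.74 in Sem and 0.34 in Nalm6, and TPT1 by 0.30 and 0.80. NCL, the nucleolin gene, changed by -0.82 and -1.53, and the chaperone gene HSPA8 by -0.73 and -1.45. Coding and non-coding hosts therefore both held genes in each direction. Of 16 coding transcripts known for a terminal oligopyrimidine tract, 15 rose and 1 (NPM1) fell with the combination in Sem, and 2 rose and 5 fell in Nalm6, with medians of 0.30 and -0.04. With ibrutinib 12 rose and 1 fell in Sem, and none rose and 1 fell in Nalm6. Among all genes, 20.3% rose and 21.3% fell with ibrutinib in Sem, and 4.97% rose and 7.46% fell in Nalm6. EEF2, RACK1, TPT1 and EEF1B2 are in both of these lists.

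Of 15 nonsense-mediated decay factors, 1 rose and 6 fell with the combination in Sem, and 2 rose and 9 fell in Nalm6. The share called was near that of all genes in both lines (52.9% in Sem and 63.7% in Nalm6). SMG1, the kinase of the pathway, rose by 0.50 in Sem and 0.55 in Nalm6, while the exon junction genes MAGOHB and MAGOH changed by -0.57 and -0.56 in Sem and by -1.18 and -0.74 in Nalm6. With asparaginase the counts were 1 higher and 2 lower in Sem and 2 higher and 7 lower in Nalm6, where 26.4% and 56.3% of all genes were called. Of 7 mRNAs known as targets of the pathway, 3 rose and 1 fell with the combination in Sem, and 3 rose and 2 fell in Nalm6, again near the share of all genes called. ATF3, a stress-response factor, rose by 0.64 and 0.72 and GADD45A by 0.33 and 0.61, while SMG5 changed by -0.30 and -0.50, so the list did not move one way. Of 7 RNA decay enzymes, 1 rose and 3 fell with the combination in Sem, and 3 rose and 3 fell in Nalm6. The cytoplasmic exonuclease gene XRN1 rose by 0.40 in Sem and 0.58 in Nalm6 with the combination and the nuclear XRN2 changed by -0.36 and -0.52. The part of these factors in the levels of the hosts was not tested.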

How the data were processed

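RNA was sequenced from Sem and Nalm6 cells, 24 libraries in 8 groups of 3. The deposited table holds FPKM per gene, made by the authors with fastp, STAR and featureCounts on hg38 per the submitters' processing notes, with versions and strand not given in the sources used here. All 299165 deposited FPKM values of 1 or more had lost their decimal point (21.2% of 1409640). Values times gene length gave whole reads (largest deviation 9.1e-13 reads, tolerance 0.001), so the missing power of 10 was chosen per gene and line by a joint score over 12 libraries. Of the restored values 617 had a posterior probability under 0.99. On simulated damage to 298821 values, 99.988% came back right. All values of a gene came back right for 88% of 25 genes changed 8-fold with the combination alone and 92% of 25 changed 16-fold. In the other settings of changed genes this was 100%. The simulated reads were drawn from the restored ones, so errors already made in the restoration would not show there. The deposited column, with its decimal points lost, could not be entered as counts, so the main test stayed on a log scale. Of the planned count-based alternatives voom was run on the recovered reads, and the others were not run.

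A gene entered a fit where 3 or more of its libraries reached 1 FPKM. The test was limma-trend (limma 3.58.1, R 4.3.3), two-sided, on log2 of FPKM plus a pseudocount of 1. P-values were adjusted by Benjamini-Hochberg across every gene in the fit, and a gene was called under 0.05. Each line was 1 fit of 12 libraries with 8 residual degrees of freedom, and differences between lines 1 fit of 24 with 16. This gave 16 comparisons. For a gene 1 kb long, 1 read is worth 0.0601 FPKM at the median depth, which limits the low hosts.

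The members and gene lists were chosen with earlier results of these data known. Values per library were given for the called hosts with the 4 largest changes each way against untreated and the 2 largest in other comparisons, for GAS5, ZFAS1, DANCR and EPB41L4A-AS1, for the highest and lowest hosts, and for hosts called in opposite directions in the lines. From each gene list up to 2 were named each way, with others chosen after their values were seen. Gene starts and ends equalled GENCODE 29 for 58724 of 58735 genes. No sample column was left unused (0). Alternatives were another pseudocount (0.1), no filter, TPM, quantile normalization, leaving out libraries, a replicate block, length and GC correction, voom on recovered reads, 1 fit of both lines and leaving out uncertain genes.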

Additional observations from a re-analysis of the deposited data

Results flagged for a closer look

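Of the differences between the lines in the effect of a drug that passed a test of the difference itself, 11 belong to hosts described by the rule for named genes in that comparison and are listed here (Sem minus Nalm6, log2 scale, limma on 24 libraries). The other hosts that passed are counted in the report. With ibrutinib these were ZFAS1 at 0.41 (adjusted p = 0.034) and SNHG11 at -0.50 (adjusted p = 0.014). With asparaginase they were DANCR at 0.87 (adjusted p = 1.5e-07), SNHG4 at 0.77 (adjusted p = 4.7e-05), ZFAS1 at -0.40 (adjusted p = 0.016) and SNHG11 at -0.45 (adjusted p = 0.013). With the combination they were SNHG8 at 1.33 (adjusted p = 2.9e-06), SNHG19 at 1.16 (adjusted p = 0.003), DANCR at 1.00 (adjusted p = 1.1e-08), EPB41L4A-AS1 at 0.62 (adjusted p = 6.9e-06) and SNHG11 at -0.38 (adjusted p = 0.027).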

How the results depend on the processing

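No called host changed direction in any alternative. Counts of called hosts left the range of 1.5 times the reported count in these cases. In Sem they were ibrutinib with quantile normalization (14 called), combination against asparaginase with no filter (6), and the interaction with no filter (0), without the libraries that stood apart (2), with voom (3) and with GC and length correction (0). In Nalm6 they were ibrutinib with no filter (2), with quantile normalization (2) and without the libraries that stood apart (11), and the interaction with no filter (1), quantile normalization (7), without those libraries (9), voom (8) and GC and length correction (6). For the difference in the ibrutinib effect they were no filter (1), without those libraries (6), voom (1) and GC and length correction (4). The cause was not tested. The GC and length correction was chosen after seeing the data.

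Leaving out 1 library gave 7 to 9 called hosts for ibrutinib, 9 to 11 for asparaginase and 14 to 17 for the combination in Sem, and 2 to 4, 12 to 15 and 15 to 18 in Nalm6. The ranges were 6 to 9 in Sem and 7 to 12 in Nalm6 for combination against asparaginase, 5 to 7 and 14 to 17 for combination against ibrutinib, and 0 to 2 and 1 to 6 for the interaction. They were 13 to 17 for the untreated lines and 1 to 3, 8 to 10 and 12 to 14 for the differences in the ibrutinib, asparaginase and combination effects. Nalm6 combination library 1 decided the highest interaction count, 6.

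Among named hosts, 750 results without 1 library kept their call, 70 lost it and 2 gained one, and under other alternatives 1132 kept it, 32 lost it and 20 gained one. Replicate numbers were not taken as pairs in the main fits. Same-numbered libraries deviated from their group means with a median correlation of 0.036 in Sem and 0.018 in Nalm6. For libraries of other numbers it was -0.022 and -0.005. Correlations this low cannot show that the samples were unpaired. With the replicate number as a block the counts were 10, 11 and 15 for ibrutinib, asparaginase and the combination in Sem and 4, 14 and 18 in Nalm6. A TPM scale left 24 hosts with a mean of at least 1 in at least 1 group, as did FPKM. Planned count tests other than voom were not run, since the deposited column could not be entered as counts.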
